A study of Mus musculus with 6 samples.

Results

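The nuclear genes that encode subunits of the respiratory chain and of ATP synthase were followed in astrocyte polysomal mRNAs of the mouse hippocampus. Their members are all protein-coding genes whose symbols start with Nduf and a letter a, b, c, s or v followed by a number, with Uqcr, with Cox4 to Cox8 or with Atp5, together with Sdha to Sdhd. This name rule gave 84 of the 22072 genes that the deposited transcripts could be matched to, and 81 of the 13534 genes with enough counts to be tested. They fall into 37 genes of complex I, 4 of complex II, 8 of complex III, 18 of complex IV and 17 of complex V, read from the name alone. RNA came from 6 weeks-old mice by translating ribosome affinity purification (TRAP), in which ribosomes carrying an eGFP-tagged protein L10a are immunoprecipitated together with the mRNAs they hold. All animals carried this L10a-eGFP transgene under the Aldh1l1 promoter, which drives it in astrocytes, and all were homozygous for a floxed Cx43 allele (Gja1, the gap junction protein Connexin 43). The Cx43FL group (3 libraries) held the littermates without Cre, and the Cx43KO group (3 libraries) carried in addition a Cre recombinase under the human Gfap promoter, which is active in astrocytes and in the progenitors that also give rise to many neurons. Whether each library came from separate animals is not given in the sources used here, so that p-values measure the spread between these libraries, which may be technical. In immunoprecipitated RNA from whole hippocampi, fewer astrocytes and less mRNA per astrocyte cannot be told apart.

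The respiratory chain sits in the inner mitochondrial membrane. Complex I takes electrons from NADH and complex II from succinate, both pass them to ubiquinone, complex III hands them to cytochrome c, and complex IV to oxygen. The protons pumped by complexes I, III and IV flow back through complex V, the ATP synthase, which makes ATP. Most subunits are encoded in the nucleus and imported, while a few core subunits of complexes I, III, IV and V are encoded by mitochondrial DNA, and the catalytic core of each complex is surrounded by accessory subunits. Astrocytes are best known for glycolysis and lactate release, and they hold mitochondria also in their fine processes and perivascular endfeet.

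Promoters of these genes were looked at for short cores of factors known to act on nuclear genes of mitochondria, because the members are spread over 19 chromosomes and share no locus. RefSeq windows (GRCm38.p6) of 250 bases before and 50 bases after the start were found for 68 of the 84 members, 73 windows in all. The core GCGCATGC of NRF1, an activator of many respiratory genes, was present on either strand in 10 of 73 windows (13.7%), beside 4.91% of the windows of the other tested genes and 2.71% of all 32851 windows. The core and its reverse complement GCATGCGC overlap, so that a match on one strand often comes with a match on the other. It lay before the RefSeq start of Sdhb, the iron-sulfur subunit of complex II, of Ndufa8, Ndufa6 and Ndufa11, accessory subunits of complex I, and of Cox6a1 and Atp5k of complexes IV and V. These stretches are shown because they carry the core in genes of several complexes, 5′ to 3′ on the strand of the gene, with the core in capitals as it reads on that strand. GENCODE M21, the source of the gene positions given here, starts some genes farther upstream. The Sdhb and Ndufa8 stretches, and a part of that of Atp5k, lie inside the gene there.
Sdhb (chr4:140961206-140961235, plus strand): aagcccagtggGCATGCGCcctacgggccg
Ndufa8 (chr2:36049328-36049357, minus strand): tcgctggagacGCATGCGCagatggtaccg
Ndufa6 (chr15:82354356-82354385, minus strand): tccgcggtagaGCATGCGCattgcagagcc
Cox6a1 (chr5:115349102-115349131, minus strand): acaggaacgggGCGCATGCgcgctctcgct
Atp5k (chr5:108434431-108434460, minus strand): ctttcactgcgGCGCATGCgcctttctggc

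The core AAGATGGC of YY1, a zinc finger factor, was in 10 of 73 windows (13.7%), beside 4.06% of the windows of other tested genes and 2.75% of all windows. In 8 windows (10.96%) it was read forward within the 50 bases after the start. This held for 1.82% of the windows of other tested genes and 0.865% of all. Ndufc1, Ndufa9 and Ndufs7 of complex I and Atp5j2 of complex V are among the 8, and their core is given here in capitals. It begins 22 to 29 bases from the start in these genes, and 22 to 38 bases from it over the 8 windows. The core holds the letters ATG of a start codon, and whether these matches are start codons was not tested.
Ndufc1 (chr3:51408915-51408944, minus strand): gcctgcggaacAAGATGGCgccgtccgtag
Ndufa9 (chr6:126849097-126849126, minus strand): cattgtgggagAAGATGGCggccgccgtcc
Ndufs7 (chr10:80249462-80249491, plus strand): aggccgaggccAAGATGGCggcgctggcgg
Atp5j2 (chr5:145191500-145191529, minus strand): accaggacttcAAGATGGCgtcactcggtg
The ETS core CCGGAAGT, bound by GABP, was in 5 of 73 windows (6.85%), beside 7.33% of those of other tested genes and 3.89% of all windows, and the TATA box TATAAA was in 10.96% of member windows, 7.10% of those of other tested genes and 13.6% of all. Each core was searched on both strands except where stated. A match describes these letters and is no site of binding.

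Counts on genes ranged from 14772942 to 15378936 in Cx43FL and from 16045690 to 34703606 in Cx43KO. The library labelled Cx43KO replicate 1 stood apart from the other libraries on the first principal component (37.9% of the variance), at 141 where the others lay between -62.3 and 0.37. Gja1 had 1396, 1382 and 1264 counts in Cx43FL and 1405, 2449 and 3079 in Cx43KO, a log2 fold change of 0.08 (SE 0.28, adjusted p = 0.949 by edgeR), so that the deleted gene was not lower in the libraries labelled Cx43KO. Whether these counts fall on the deleted exon cannot be seen in counts per transcript. Levels are given in CPM, reads of a gene per 1000000 reads, scaled by TMM, edgeR's factor for library composition. The 12 astrocyte markers, all with counts in every library, summed to between 27884 and 31499 CPM for Cx43FL and to between 13675 and 37995 CPM for Cx43KO, with Cx43KO replicate 1 lowest. The 14 neuron markers summed to between 2751 and 3399.7 CPM for Cx43FL and to between 3577 and 8430.0 CPM for Cx43KO, with the same library highest. Of the 12 microglia markers 4 were at 0 in some library, and their sum ran from 31.5 to 58.1 CPM for Cx43FL and from 110.5 to 252 CPM for Cx43KO. Oligodendrocyte markers (11 genes, 1 at 0 in some library) ran from 613 to 1035 and from 639 to 2705 CPM, and endothelial markers (10 genes, 5 at 0 in some library) from 8.48 to 12.1 and from 10.54 to 34.5 CPM. The part of other cell types in the results that follow was not tested. The serial numbers of the deposited files form a separate series for each genotype, and the libraries were pooled 3 at a time for sequencing. If these series mark separate preparations or pools, these cannot be told apart from genotype.

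The first question was whether the mRNAs of the chain differed between Cx43KO and Cx43FL astrocytes. Most had lower mean levels in Cx43KO, but none passed the test. With an adjusted p below 0.05 by edgeR's quasi-likelihood test and a mean normalized count above 50, no member was called higher and none lower, where 1 gene was called higher among all 13534 tested genes (0.00739%) and 0 lower (0%). The lowest adjusted p of a member was 0.541. At an unadjusted p below 0.05, 0 members were higher, beside 5.66% of all tested genes, and 11 were lower (13.6%), beside 2.67%. Of other genes under 1000 bases with a mean normalized count over 1000, 11.5% were lower at this threshold. DESeq2 called no member with or without its prior, and at an unadjusted p below 0.05 it gave 12 members lower and 0 higher in each case. Among the 16822 genes it tested, 3.11% were lower and 6.54% higher at that threshold with the prior and 3.53% and 7.11% without it.

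The log2 fold change was negative for 73 of the 81 members and positive for 8, and in 26 it was smaller than its standard error. The median was -0.49 for members and 0.07 for all tested genes. By complex, the medians were -0.46 (I, 36 genes), -0.31 (II, 4 genes), -0.53 (III, 8 genes), -0.54 (IV, 17 genes) and -0.54 (V, 16 genes). In 14 members (17.3%) the 3 Cx43KO values were all under the lowest Cx43FL value, where 7.46% of all tested genes had this pattern, and in 1 member (1.23%) they were all over the highest, where 8.06% had it. With offsets for GC content and transcript length, the median of members was -0.13, the counts at an unadjusted p below 0.05 were 1 lower (2.80% of all tested genes) and 2 higher (4.97%), and those without overlap were 7 below (7.20%) and 4 above (7.42%).

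**Figure D1:**
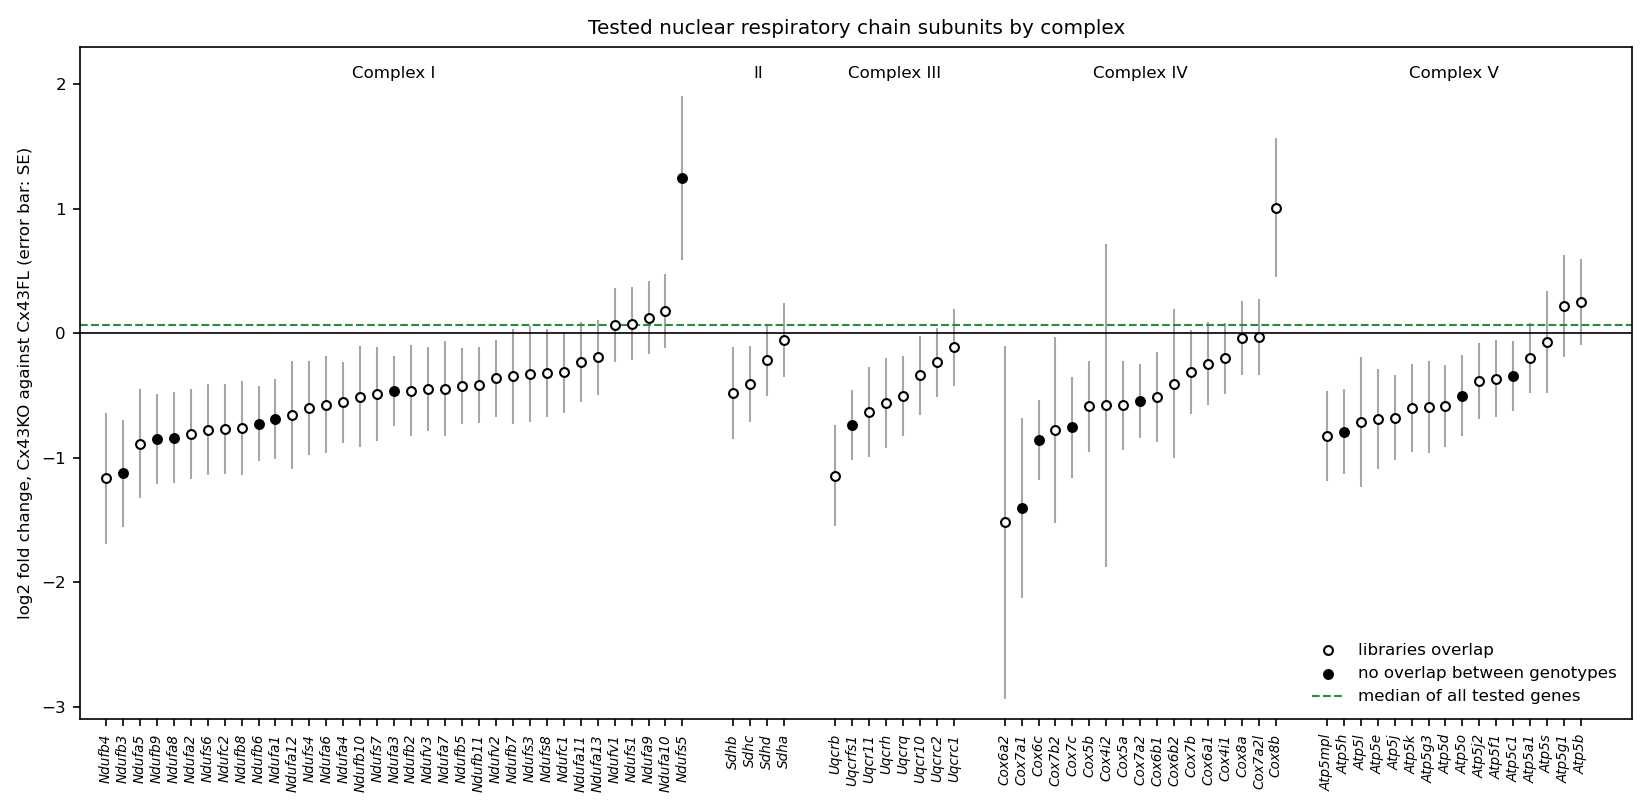
Log2 fold change (y axis) of 80 of the 81 tested subunit genes (x axis), grouped by complex, with the standard error as bar and filled circles where the libraries of the genotypes do not overlap. Of the genes shown, 72 lie below 0, with medians over all tested subunits from -0.31 in complex II to -0.54 in complexes IV and V, and Ndufs5 and Cox8b lie highest.

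The members were not lower to the same extent in each library. Relative to the Cx43FL mean of each gene, the median deviation on the log2 scale was -0.06 in Cx43FL replicate 1, 0.39 in replicate 2 and -0.30 in replicate 3. Among the Cx43KO libraries it was -0.90 in replicate 1, -0.17 in replicate 2 and -0.32 in replicate 3. Cx43KO replicate 2 thus lay between Cx43FL replicates 1 and 3 and Cx43KO replicate 3 just under Cx43FL replicate 3, while Cx43KO replicate 1 was lowest of the 6 libraries for 62 of the 81 members and Cx43FL replicate 2 highest for 63. The members took 2.82%, 3.46% and 2.58% of the counts on genes in Cx43FL (2.95% ± 0.45, SD, n = 3) and 1.67%, 2.68% and 2.35% in Cx43KO (2.23% ± 0.52, SD, n = 3), and these shares overlap. Without Cx43KO replicate 1 the median log2 fold change was -0.28, with 7 members lower (3.44% of all tested genes) and 1 higher (5.16%) at an unadjusted p below 0.05. Without Cx43FL replicate 2 it was -0.26, with 1 member lower (1.30% of all tested genes) and 0 higher, and without Cx43FL replicate 1 there were 3 members lower (1.24%). The number of members lying below all Cx43FL libraries was 36 without Cx43FL replicate 3, 30 without Cx43KO replicate 2 and 26 without Cx43KO replicate 3, where 12.1%, 13.2% and 15.8% of all tested genes did so, and 45.5%, 42.8% and 29.7% of other genes that are short and well counted (under 1000 bases, mean normalized count over 1000). Cx43KO replicate 1 is also the library with the lowest astrocyte and the highest neuron marker sum, and the part of these differences in the members' levels was not tested.

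**Figure D2:**
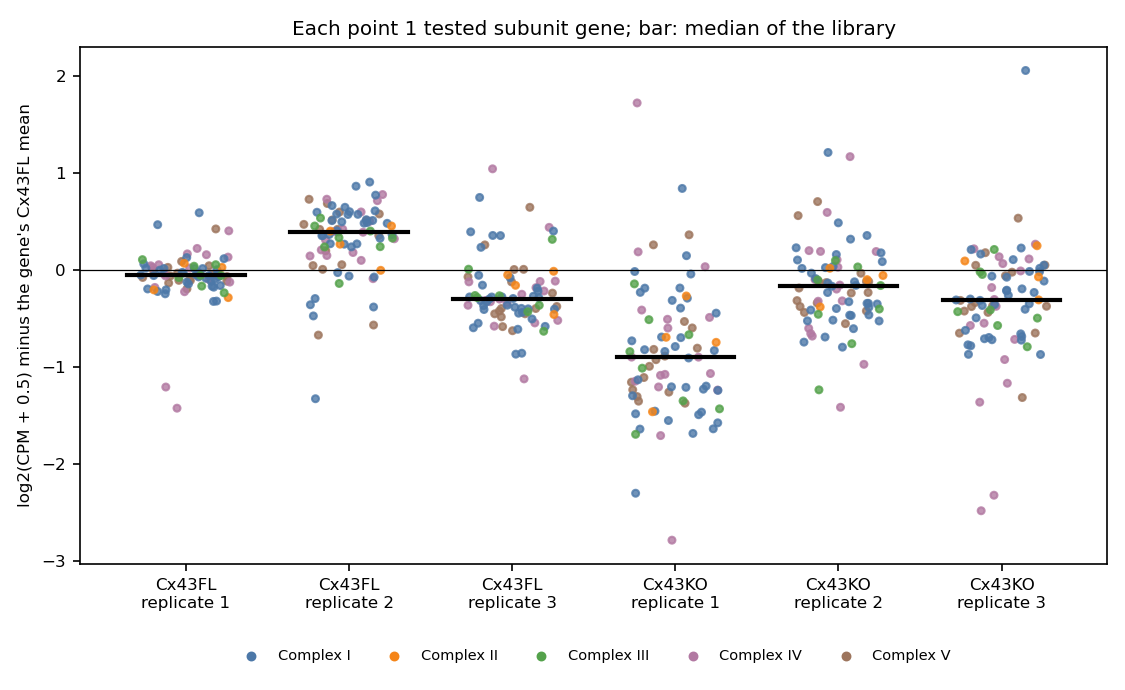
Deviation of each tested subunit gene from its Cx43FL mean, log2(CPM + 0.5), in each of the 6 libraries (1 point a gene, coloured by complex, with the median of the library as bar). The medians are 0.39 in Cx43FL replicate 2 and -0.90 in Cx43KO replicate 1, and those of the other 4 libraries lie between -0.32 and -0.06.

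The transcripts of respiratory subunits are short, with a median of 782 bases against 3111 for all tested genes, and length moved with the comparison. Among the other genes, the median log2 fold change was -0.38 under 500 bases, -0.12 between 1500 and 2000 bases and 0.38 above 5000 bases. Members under 1000 bases (48 genes) had a median of -0.59 and longer members (33 genes) of -0.31. The 821 other genes under 1000 bases had a median of -0.32. The 269 of them with a mean normalized count over 1000 had a median of -0.50, 89.2% of them were negative and 18.6% lay below all Cx43FL libraries, which is near the shares of the short members (95.8% and 22.9%). At an unadjusted p below 0.05, 11.5% of them were lower, beside 4.87% of the 821 and 18.75% of the short members. This set of short and well counted genes was chosen after the members' values were seen. Its median deviations per library were -0.04, 0.36 and -0.30 for Cx43FL and -0.98, -0.18 and -0.35 for Cx43KO. Those of the members under 1000 bases were -0.04, 0.43 and -0.37 for Cx43FL and -1.20, -0.32 and -0.43 for Cx43KO. The 74 genes of cytosolic ribosomal proteins, which are short as well, had a median of -0.18 and a median deviation of -0.22 in Cx43KO replicate 1. Over the 81 members, the log2 fold change and log2 length had a Pearson's r of 0.29 and a Spearman's rho of 0.43, and without Cox8b and Ndufs5 the r was 0.51. These points share libraries, and genes are not independent replicates. With the offsets, the short and well counted genes had a median of -0.03 and 7.48% of them lay below all Cx43FL libraries, where 7.20% of all tested genes did so. The 821 other genes under 1000 bases then had a median of 0.08, and those under 500 bases of 0.20. All tested genes had 0.045. The offsets thus left the shortest other genes above the rest, while the members had -0.13, with 57 of 81 negative.

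**Figure D3:**
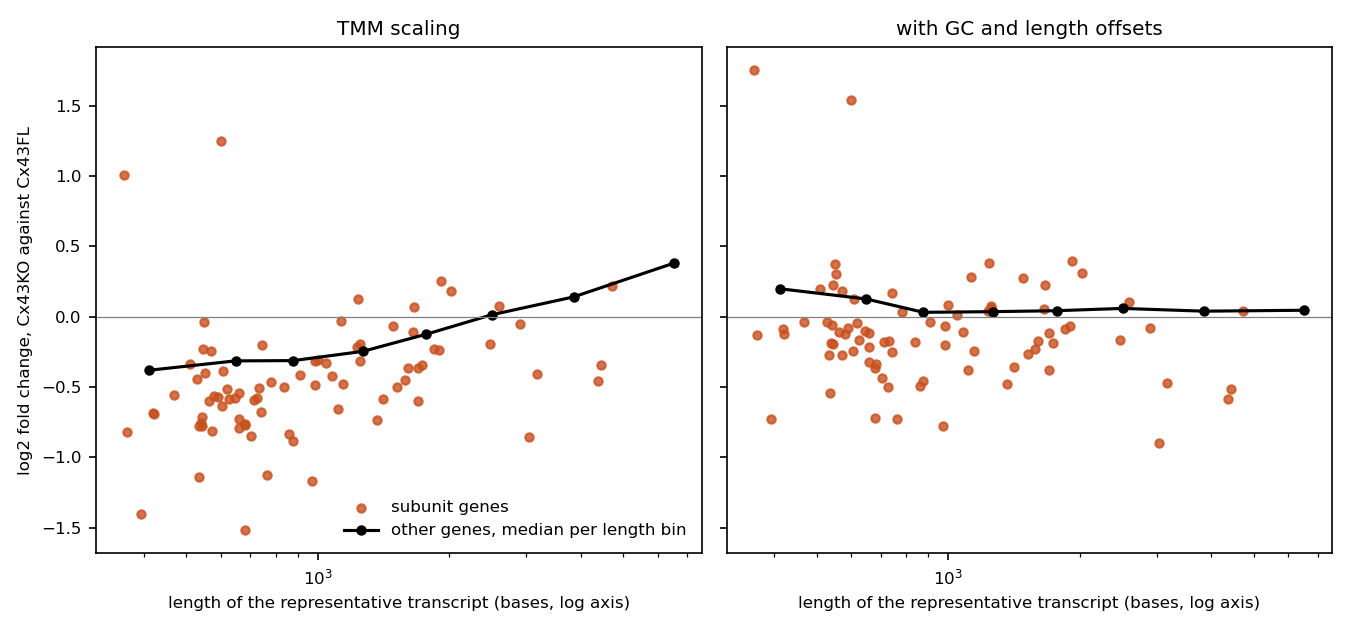
Log2 fold change (y axis) against the length of the representative transcript (x axis, log scale) for 81 subunit genes (points) and for the other tested genes (line, median per length bin), with TMM scaling (left) and with GC and length offsets (right). On the left the line climbs from -0.38 in the shortest bin to 0.38 in the longest with most subunit genes on or below it, and on the right the median of the subunit genes is -0.13.

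Complex I is the entry point of electrons from NADH. Of its 36 tested members, 31 had a negative log2 fold change, 6 were lower at an unadjusted p below 0.05 and 6 lay below all Cx43FL libraries. Of all tested genes, 45.6% were negative, 2.67% lower at this threshold and 7.46% below all Cx43FL libraries, and the counts for the other complexes stand beside the same shares. Ndufb3, an accessory subunit of the membrane arm, was at 229.9, 349.6 and 185 CPM in Cx43FL and at 49.4, 152 and 150.01 CPM in Cx43KO. The groups did not overlap, and Cx43KO replicate 1 was far below the other libraries (log2 fold change -1.12, SE 0.43, adjusted p = 0.557 by edgeR). The gene lies on chr1:58586384-58595964 (mm10), and its counted transcript of 763 bases is protein-coding. Ndufb9, another accessory subunit of this arm (chr15:58933756-58939488), was at 404, 688 and 358 CPM in Cx43FL and at 165, 354 and 287 CPM in Cx43KO. The highest Cx43KO and the lowest Cx43FL library were nearly level (log2 fold change -0.85, SE 0.36, adjusted p = 0.584 by edgeR). Ndufa8 (chr2:36036326-36049406), whose promoter stretch is shown above, was at 255, 337 and 193 CPM in Cx43FL and at 81.4, 178 and 180.5 CPM in Cx43KO. Here too Cx43KO replicate 1 was lowest, while the other 2 libraries were just under Cx43FL (log2 fold change -0.84, SE 0.36, adjusted p = 0.592 by edgeR). Ndufb6 (chr4:40270591-40279421) was at 414, 284 and 229 CPM in Cx43FL and at 219.6, 178 and 163 CPM in Cx43KO. It is the case among these 4 where Cx43KO replicate 1 was highest of its group (log2 fold change -0.72, SE 0.30, adjusted p = 0.574 by edgeR), and 34.1% of its 50-base stretches recur in transcripts of other genes. The authors removed reads that map more than once, so that such genes may lose reads and their level is uncertain. With the GC and length offsets the log2 fold change was -0.72 for Ndufb3, -0.43 for Ndufb9, -0.49 for Ndufa8 and -0.22 for Ndufb6. Without Cx43FL replicate 2 it was -0.51 for Ndufb9, without Cx43KO replicate 1 it was -0.55 for Ndufa8, and without Cx43FL replicate 1 it was -0.47 for Ndufb6, none of them with an unadjusted p below 0.05. Ndufa2, at -0.81, and Ndufb4, at -1.16, also had an unadjusted p below 0.05 (0.0464 and 0.0486), but their libraries overlapped, and Ndufb4, at 35.997, 65.3 and 19.3 CPM in Cx43FL and at 11.6, 20.3 and 21.8 CPM in Cx43KO, shares 37.0% of its stretches. Ndufa1 and Ndufa3 lay below all Cx43FL libraries with log2 fold changes of -0.68 and -0.46 and unadjusted p-values of 0.0562 and 0.129.

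The 6 genes of the catalytic core of complex I that are described here had log2 fold changes from -0.49 to 0.08. Ndufs1 and Ndufv1, which carry iron-sulfur clusters and the NADH site, had log2 fold changes of 0.08 (SE 0.29) and 0.07 (SE 0.30), and Ndufv2, the partner of Ndufv1, of -0.36 (SE 0.31). Ndufs1 was at 96.8, 104 and 127 CPM in Cx43FL and at 95.1, 139 and 112 CPM in Cx43KO, so that the groups overlapped. Ndufs3, Ndufs7 and Ndufs8, on the path to ubiquinone, ranged from -0.32 to -0.49 with standard errors of 0.36 to 0.39, and the libraries of the genotypes overlapped in all 6 of these core genes. Ndufs1 and Ndufv1 have transcripts of 2590 and 1661 bases, longer than most members. Ndufa9 and Ndufa10, accessory subunits, were at 0.13 (SE 0.29) and 0.18 (SE 0.29). Ndufa10 was at 178, 151 and 236 CPM in Cx43FL and at 205, 259 and 177 CPM in Cx43KO, with overlap, and its log2 fold change was 0.03 without Cx43FL replicate 2. Ndufs5, an accessory subunit, had the highest log2 fold change of all members, 1.25 (SE 0.66, adjusted p = 0.609 by edgeR). It was at 12.9, 3.05 and 14.5 CPM in Cx43FL and at 15.5, 20.2 and 36.6 CPM in Cx43KO, with every Cx43KO library above, but its level is low and 35.6% of its stretches recur elsewhere. It was at 1.54 with the offsets (unadjusted p = 0.0497 by edgeR), 1.48 without Cx43KO replicate 1, 0.80 without Cx43FL replicate 2 and 0.81 without Cx43KO replicate 3.

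Complex II is the citric acid cycle enzyme succinate dehydrogenase, and all of its subunits are nuclear. Its 4 genes had negative log2 fold changes with overlapping libraries. Sdha, the flavoprotein that oxidizes succinate, was at 372, 621 and 406 CPM in Cx43FL and at 377, 436 and 539.6 CPM in Cx43KO (log2 fold change -0.05, SE 0.30), and no Cx43KO library stood below the lowest Cx43FL library. Sdhb was at 207, 287 and 230.1 CPM in Cx43FL and at 86.2, 241 and 192 CPM in Cx43KO (log2 fold change -0.48, SE 0.37), and Cx43KO replicate 1 was far lowest. The membrane anchors Sdhc and Sdhd had log2 fold changes of -0.41 (SE 0.31) and -0.21 (SE 0.29). The level of Sdha per kilobase relative to Sdhb was 0.75 ± 0.09 (SD, n = 3) in Cx43FL and 1.18 ± 0.51 in Cx43KO. It was 1.72 in Cx43KO replicate 1, 0.71 in replicate 2 and 1.10 in replicate 3, against 0.70 to 0.85 in Cx43FL. For the anchors, Sdhc relative to Sdhd, it was 0.37 ± 0.11 in Cx43FL and 0.33 ± 0.04 in Cx43KO, with 0.38 in Cx43KO replicate 1, within the range of Cx43FL.

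Complex III passes electrons from ubiquinol to cytochrome c. Uqcrfs1, its Rieske iron-sulfur protein, was the only member of this complex without overlap between the genotypes, and it lies on chr13:30540308-30545362 with no stretch shared with other genes. It was at 533, 607 and 421 CPM in Cx43FL and at 254, 303 and 381 CPM in Cx43KO. The groups did not overlap, and Cx43KO replicates 1 and 2 were both well below Cx43FL (log2 fold change -0.73, SE 0.28, adjusted p = 0.557 by edgeR). Its log2 fold change was -0.61 without Cx43KO replicate 1, -0.62 without Cx43FL replicate 2 and -0.48 with the length and GC offsets, with unadjusted p-values of 0.0341, 0.0780 and 0.0678 by edgeR. Uqcrb, a small subunit near the ubiquinone site, had the lowest unadjusted p of all members, 0.0170 (log2 fold change -1.14, SE 0.41, adjusted p = 0.541 by edgeR), at 143, 193 and 85.5 CPM in Cx43FL and at 40.7, 56.1 and 94.0 CPM in Cx43KO. Cx43KO replicate 3 was above the lowest Cx43FL library, and 43.4% of its stretches recur elsewhere. The core proteins Uqcrc1 and Uqcrc2 were at -0.11 (SE 0.31) and -0.23 (SE 0.28), and the hinge protein Uqcrh, the most abundant member of this complex, at -0.56 (SE 0.36).

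Complex IV reduces oxygen, and its nuclear subunits surround a core encoded by mitochondrial DNA. Of its 17 tested members, 16 had a negative log2 fold change, 1 was lower at an unadjusted p below 0.05 and 4 lay below all Cx43FL libraries. The first of these is Cox6c (chr15:35925886-35938246), which was at 571, 685 and 363 CPM in Cx43FL and at 220.3, 324 and 349.7 CPM in Cx43KO. The groups did not overlap, but Cx43FL replicate 3 was close to Cx43KO (log2 fold change -0.86, SE 0.32, adjusted p = 0.552 by edgeR). Its counted transcript, of 3038 bases, is annotated as a retained intron, so that the length used for it is not that of its mRNA, and with the length and GC offsets it was at -0.90 (unadjusted p = 0.0148 by edgeR). Cox7c was at 45.7, 45.0 and 32.9 CPM in Cx43FL and at 28.8, 26.6 and 17.8 CPM in Cx43KO, all below (log2 fold change -0.75, SE 0.40), with 53.0% of its stretches shared. Cox4i1, the largest nuclear subunit of the enzyme, was at 902, 948 and 817 CPM in Cx43FL and at 622, 1017 and 683 CPM in Cx43KO, so that the highest library of all was a Cx43KO library (log2 fold change -0.20, SE 0.28). Cox5a and Cox5b were at -0.58 (SE 0.36) and -0.59 (SE 0.37), with overlapping libraries.

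Complex V makes ATP with a catalytic head held by a peripheral stalk on a rotating ring. Of its 16 tested members, 14 had a negative log2 fold change, 2 were lower at an unadjusted p below 0.05 and 3 lay below all Cx43FL libraries. Atp5b, the catalytic beta subunit of the head, was at 2081, 1472 and 3416 CPM in Cx43FL and at 2612, 3219 and 2469 CPM in Cx43KO. It was among the 8 members with a positive value (log2 fold change 0.25, SE 0.34), but this value was -0.0014 without Cx43FL replicate 2. Atp5a1, the alpha subunit that alternates with it in the head, was at -0.20 (SE 0.28), and the level of Atp5b per kilobase relative to Atp5a1 was 2.74, 1.47 and 3.91 in Cx43FL and 4.34, 4.05 and 2.74 in Cx43KO. Of the central stalk, Atp5c1 was at 741, 745 and 744 CPM in Cx43FL, nearly equal in the 3 libraries, and at 420.4, 629 and 712 CPM in Cx43KO (log2 fold change -0.34, SE 0.28). Every Cx43KO library was lower, and Cx43KO replicate 3 by little. Atp5d and Atp5e, also of this stalk, were at -0.58 (SE 0.33) and -0.69 (SE 0.40), and Atp5o, which ties the head to the peripheral stalk, at -0.50 (SE 0.33), without overlap. Atp5h (chr11:115415689-115419962), subunit d of the peripheral stalk, was at 188, 289 and 153 CPM in Cx43FL and at 85.6, 151 and 129 CPM in Cx43KO. Its groups were barely separated, and 47.7% of its stretches recur elsewhere (log2 fold change -0.79, SE 0.34, adjusted p = 0.587 by edgeR). Its log2 fold change was -0.32 with the GC and length offsets and -0.50 without Cx43FL replicate 2. Atp5g1, a gene of the ring subunit c, was at 72.9, 33.9 and 64.9 CPM in Cx43FL and at 69.8, 88.7 and 41.6 CPM in Cx43KO (log2 fold change 0.22, SE 0.41). Its libraries overlapped, and the value was -0.06 without Cx43FL replicate 2. Atp5mpl, a small membrane subunit, was at -0.82 (SE 0.36, unadjusted p = 0.0445 by edgeR) with overlapping libraries.

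**Figure D4:**
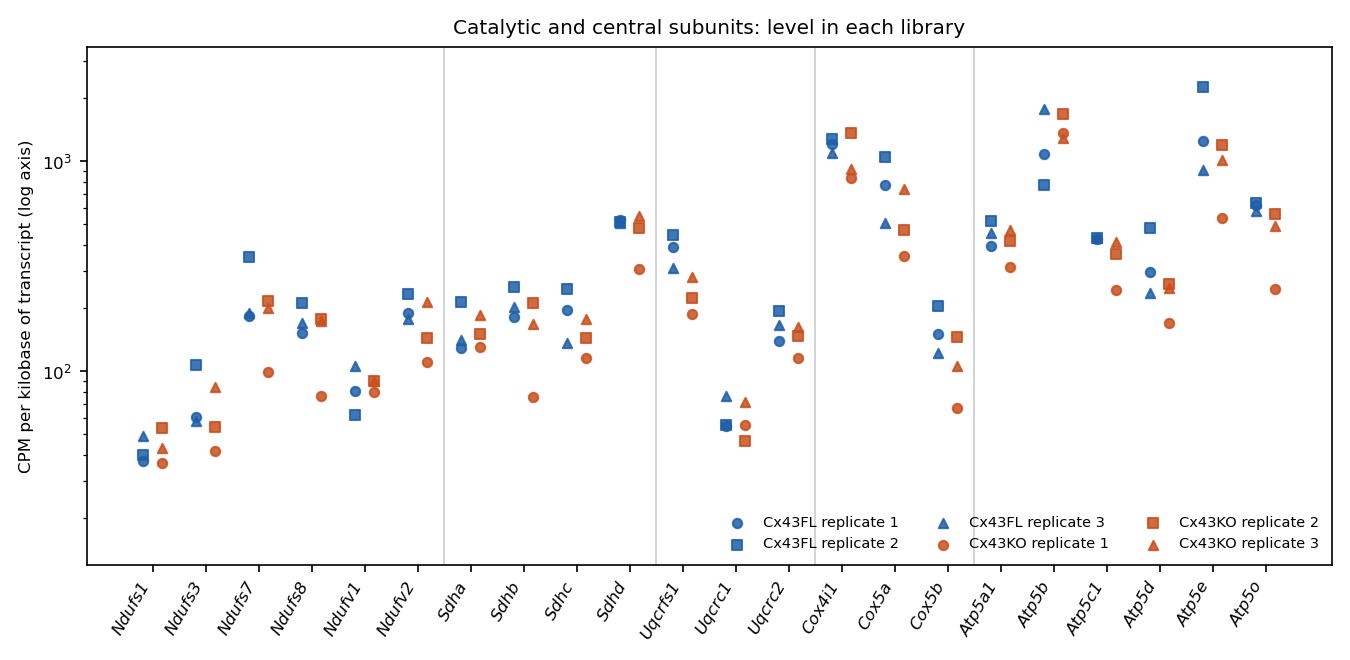
CPM per kilobase of the representative transcript (y axis, log scale) of 22 catalytic and central subunits (x axis, complexes I to V separated by lines), in 3 Cx43FL libraries (blue) and 3 Cx43KO libraries (orange). Cx43KO replicate 1 (orange circle) is the lowest library for most genes, while Atp5b, Ndufs1 and Ndufv1 lie at similar levels in both genotypes.

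Levels between genes were compared in CPM per kilobase in Cx43FL, where read counts are divided by the length of the transcript. Within complex I, Ndufa4 was highest, at 1932 ± 417 (SD, n = 3), and Ndufs5 lowest, at 16.9 ± 10.3. Ndufa4 carries a complex I name and is now known as a subunit of complex IV. In complex II, Sdhd was highest (515 ± 7.54) and Sdha lowest (161 ± 46.6), and in complex III, Uqcrh (1534 ± 331) and Uqcrc1 (62.2 ± 12.3). In complex IV, Cox4i1 was highest (1193 ± 88.9) and Cox6a2 lowest (2.29 ± 1.71), and in complex V, Atp5g3, a gene of the ring subunit c, was highest (2077 ± 579.6) and Atp5g1, another gene of this subunit, lowest (12.1 ± 4.37). Neighbours in this order mostly overlapped in their libraries, in 33 of 35 pairs in complex I, 2 of 3 in II, 5 of 7 in III, 13 of 16 in IV and 12 of 15 in V. Sdhd was separated from Sdhb, and Ndufa4 from the next member, Ndufc2 (977 ± 335). The counted transcript was longer than 3000 bases for 5 members, Atp5g1 among them, and not of protein-coding type for 10, which sets their level per kilobase. By the sum over all transcripts per kilobase of the longest, the lowest member of each complex was unchanged, and the highest was Ndufb5 in complex I and Atp5j in complex V, while in complexes II, III and IV it was the same gene. Ndufb5 and Atp5j had 7 and 12 counted transcripts, against 1 for Ndufa4 and 5 for Atp5g3. Whether this sum holds reads shared by transcripts more than once was not tested.

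In most paralog families a single isoform held nearly all of the level. Cox4i1 made up 99.2% ± 0.59 (SD, n = 3) of the summed level per kilobase of Cox4i1 and Cox4i2 in Cx43FL, and Cox6a1 made up 99.8% ± 0.14 beside Cox6a2, a heart and skeletal muscle isoform. Cox6b1 made up 96.5% ± 0.46 beside Cox6b2, and Cox7b 95.0% ± 2.45 beside Cox7b2, both of which are known as testis isoforms. Of the counted level of the ring subunit c, Atp5g3 made up 99.3% ± 0.35. This is not its share of subunit c mRNA, since Atp5g1 was divided by a transcript of 4715 bases and all 50-base stretches of Atp5g2 recur in transcripts of other genes. Ndufa4l2, a hypoxia-induced relative of Ndufa4, had too few counts to be tested, and Cox8c had 0 counts in every library, where a count of 0 allows up to 0.203 CPM in the shallowest library. Atp5g2 was not tested either, with at most 8 counts in a library. Whether reads of it were lost because they map more than once was not tested.

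The muscle isoforms had low levels. Cox7a1 was at 13.98, 14.2 and 9.85 CPM in Cx43FL and at 6.46, 6.11 and 1.82 CPM in Cx43KO (log2 fold change -1.40, SE 0.73, adjusted p = 0.609 by edgeR). All Cx43KO libraries lay below, though from few counts. Cox8b was at 13.4, 10.7 and 10.4 CPM in Cx43FL and at 38.8, 17.5 and 13.3 CPM in Cx43KO (log2 fold change 1.01, SE 0.56, adjusted p = 0.619 by edgeR). The value was 0.42 without Cx43KO replicate 1 and 1.75 with the GC and length offsets (unadjusted p = 0.0252 by edgeR). Cox8a, the ubiquitous isoform, was at -0.04 (SE 0.30) and at 0.38 with the offsets. With the offsets, all Cx43KO libraries lay above those of Cx43FL for both Cox8b and Cox8a. Cox6a2 had the lowest log2 fold change of all members, -1.52, with a standard error of 1.42. It was at 0.264, 2.52 and 1.89 CPM in Cx43FL and at 1.30, 0.161 and 0.185 CPM in Cx43KO, all near 0.

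In the Cox7a family the proportions did not overlap between genotypes. Cox7a2l, which joins complexes III and IV in supercomplexes, made up 14.5%, 16.4% and 15.0% of the family in Cx43FL and 22.2%, 20.8% and 20.3% in Cx43KO. Every Cx43KO library was higher (15.3% ± 0.96 against 21.1% ± 1.01, SD, n = 3; p = 0.1 in a 2-sided exact permutation test, which is the lowest value possible with 3 against 3 libraries, not corrected for the 8 families looked at). Cox7a2, the main isoform of the family, was at 424, 482 and 359 CPM in Cx43FL and at 196, 334 and 338 CPM in Cx43KO. Its libraries did not overlap (log2 fold change -0.54, SE 0.30), whereas Cox7a2l was level (log2 fold change -0.03, SE 0.30). The transcript of Cox7a2l is longer (1129 against 659 bases), and with the GC and length offsets the values were 0.28 for Cox7a2l and -0.12 for Cox7a2. The part of length in this difference was not tested.

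**Figure D5:**
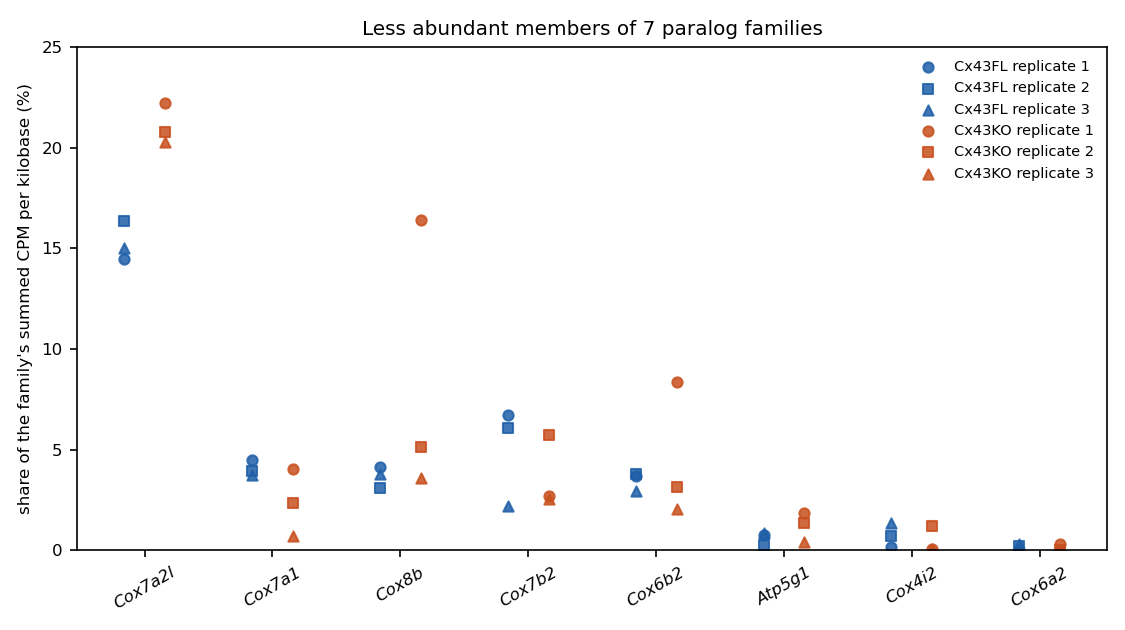
Share (%) of 8 less abundant paralogs in the summed CPM per kilobase of their family, in 3 Cx43FL libraries (blue) and 3 Cx43KO libraries (orange). The shares of Cox7a2l do not overlap between genotypes (14.5% to 16.4% against 20.3% to 22.2%), and those of Cox8b and Cox6b2 are highest in Cx43KO replicate 1.

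Other genes of mitochondrial respiration were taken from lists by function. Assembly factors, which build the complexes and are not part of them, had a median log2 fold change of -0.41 over 53 tested genes, 0 of them called, with 5 lower and 2 higher at an unadjusted p below 0.05, beside 2.67% lower and 5.66% higher among all tested genes. Among them Ndufaf8 of complex I was at -1.23 (SE 0.40, adjusted p = 0.541 by edgeR), Cox20 and Cox17 of complex IV were at -1.05 (SE 0.40) and -0.82 (SE 0.37), and Tmem126a of complex I and Uqcc3 of complex III at -0.86 (SE 0.35) and -1.09 (SE 0.45). The 2 higher ones were Lyrm7, which serves the insertion of Uqcrfs1, at 1.17 (SE 0.46), and Atpaf1 of complex V, at 1.15 (SE 0.52). Electron carriers and subunits that the name rule misses had a median of -0.16 (13 genes, 1 lower and 0 higher), and Cycs, cytochrome c itself, was at -0.11 (SE 0.41). The list of the tricarboxylic acid cycle had a median of -0.13 (18 genes, 0 lower and 0 higher). Besides enzymes of the cycle it holds the pyruvate dehydrogenase genes Pdha1, Pdhb, Dlat and Pdhx. Regulators of mitochondrial biogenesis had a median of -0.20 (21 genes, 1 lower and 2 higher), and without Cx43KO replicate 1 of 0.02. The 2 higher genes were Esrrg, an orphan nuclear receptor, at 1.34 (SE 0.49, unadjusted p = 0.0188 by edgeR), and Pprc1, a coactivator, at 1.72 (SE 0.78, unadjusted p = 0.0494 by edgeR). Ppargc1a, another coactivator, was at 0.01 (SE 0.28), while Nrf1 and Yy1, whose cores are shown above, were at -1.15 (SE 0.53, unadjusted p = 0.0534 by edgeR) and -0.81 (SE 0.36, unadjusted p = 0.0475). None of these genes passed after adjustment, and no count of these lists was tested against other genes.

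Subunits encoded by mitochondrial DNA varied widely among the Cx43KO libraries. Of 13 genes, 5 (mt-Co2, mt-Co3, mt-Atp6, mt-Atp8 and mt-Nd4l) are listed at 0 in every library although all respiring cells use them, so that the table does not give their level, and mt-Nd3 had at most 8 counts. The other 7 were tested, with a median log2 fold change of 0.59 and 0 called, 0 at an unadjusted p below 0.05. The summed level of the genes with counts was 274, 436 and 241 CPM in Cx43FL and 1335, 432 and 79.4 CPM in Cx43KO. The Cx43KO libraries thus held both the highest and the lowest value of all 6. Without Cx43KO replicate 1 the median was -0.48, with 2 genes lower at an unadjusted p below 0.05 (3.44% of all tested genes). With the GC and length offsets it was 1.24, with 2 genes higher (4.97%). Cx43KO replicate 1, where the nuclear subunits were lowest, was the library where the mitochondrial ones were highest. Mitochondrial mRNAs are made and translated inside the organelle, and the purified ribosomes are cytosolic.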

How the data were processed

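Polysomal RNA of 3 Cx43FL and 3 Cx43KO libraries of hippocampus was amplified with NuGEN Ovation and sequenced as 50-base reads. The authors aligned reads with STAR to mm10, removed reads that map more than once, and deposited raw counts per Ensembl 75 transcript from HTSeq-count (HTSeq 0.5.3 and bcl2fastq 1.8.4 per the labels). Of 75466 transcripts, 73157 were matched to gene symbols of GENCODE M21 and 2309 were not (1.605% to 1.778% of counts, left out). For each gene the transcript with most counts over the 6 libraries stood for it, which left 14772942 to 34703606 counts per library. Levels depend on this choice.

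Genes passing filterByExpr were fitted with edgeR 4.0.16 (quasi-likelihood, TMM factors, genotype alone, all 6 libraries) in R 4.3.3, and p-values were adjusted by Benjamini-Hochberg over all 13534 genes. A call needed an adjusted p below 0.05 and, for the higher group, a normalized mean of more than 50. The standard error is the log2 fold change divided by the root of F. The exact permutation test given for Cox7a2l compared its percent shares of the family in the libraries and cannot go below p = 0.1. The limit for 0 counts is 3 counts per library, covering counting error only. Alternatives were DESeq2 1.42.0 with and without prior, other size factors and filters, sums over transcripts, a block for the replicate number, offsets by loess on GC and length, and leaving out each library. The edgeR fit was tested on simulated counts with known changes, which were larger than those of any member. Members and lists were chosen with earlier results of these data known. Genes named in full were those with an unadjusted p below 0.05 and no overlap, the 5 largest differences each way, the highest and lowest level per complex, paralog families and the catalytic core, and others serve as examples. Same-numbered libraries of the genotypes did not deviate together over all tested genes (r = 0.0016, -0.025 and -0.040). Whether they share a litter or a preparation is not given. The values of 1 member are not reported here, while counts and medians over the members include it.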

Additional observations from a re-analysis of the deposited data

How the results depend on the processing

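No subunit gene was called in either direction under any alternative tried. Across all genes, where 1 was called higher and 0 lower, DESeq2 called 113 higher and 17 lower with its prior and 147 higher and 27 lower without it. The count of higher calls was 0 with at least 10 counts in every library and with sums over transcripts, 2 with the replicate block, also when GC and length offsets were added to it, and 0 to 11 when single libraries were left out (11 without Cx43KO replicate 1). The fit described above gave 11 subunit genes lower and 0 higher at an unadjusted p below 0.05 (2.67% and 5.66% of all tested genes). At this threshold the offsets gave 1 lower and 2 higher (2.80% and 4.97%). The offsets with the replicate block gave 2 lower and 2 higher (2.46% and 3.83%), and sums over transcripts 6 lower (2.43%). Leaving out single libraries gave 1 to 15 lower and 0 to 1 higher (1.24% to 5.18% and 3.37% to 8.71%). Without overlap, 14 were below and 1 above in that fit (7.46% and 8.06% of all tested genes). The offsets with or without the block gave 7 below and 4 above (7.20% and 7.42%). No filter gave 2 above (7.04%), sums over transcripts 2 above (7.99%) and upper-quartile factors 0 above (6.95%). Leaving out single libraries gave 14 to 36 below and 1 to 2 above (10.4% to 15.8% and 10.5% to 15.97%). The median log2 fold change of the subunit genes, -0.49, ran from -0.63 to -0.26 without single libraries and was -0.54 with the replicate block, -0.13 with the offsets, also with the block, and between -0.52 and -0.42 under the remaining alternatives. The replicate block gave 9 subunit genes lower at an unadjusted p below 0.05 (2.22% of all tested genes). No basis for the pairing other than the number is given. The cause of these shifts was not tested.

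Of 1294 comparisons of single subunit genes with their value under an alternative, 1149 kept direction and side of the unadjusted threshold, 61 no longer passed it, 30 newly passed it, and 54 changed sign with neither value passing. The 7 genes that were lower at an unadjusted p below 0.05 without overlap were negative under all 16 alternatives, and between 1 and 7 of them passed. Since they were chosen by these same libraries, leaving 1 out could hardly change their sign, and the other alternatives refit the same counts. Their shared sign is therefore no support. Without Cx43KO replicate 1, the list medians were -0.32 for assembly factors, -0.26 for carriers and subunits outside the name rule and -0.05 for the tricarboxylic acid cycle, and with the offsets -0.18, -0.07 and 0.05. With the offsets the medians were -0.31 for biogenesis regulators and 1.24 for subunits encoded by mitochondrial DNA. The fitted biological coefficient of variation was 0.600, and 3 libraries a group limit the precision of each value.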
